A study of Mus musculus with 8 samples.

Results

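The genes described here are 9 surface proteins with which neutrophils sense chemical attractants and grip vessel walls and microbes: the receptors Cxcr2, Cxcr4, Ccr1, Fpr1, Fpr2, C5ar1 and Ltb4r1 and the integrin chains Itgam and Itgb2. They were taken by symbol from the deposited table of raw read counts, and 9 of 9 were found among its 23337 genes. Bone marrow cells came from C57BL/6 mice, 4 months old, and mice of each group were JAK2V617F/+, an activating change of the Jak2 kinase. They were labelled Plek2+/+ or Plek2-/-, so the Plek2+/+ groups also carry the Jak2 change and are not healthy controls. Plek2 encodes pleckstrin-2, a membrane-binding protein of erythroblasts. Cells positive for TER119, a surface mark of red cell precursors, make up the erythroblast groups, and Kit-positive cells of the lineage-negative fraction make up the stem and progenitor groups, called progenitors here. Each of the 4 groups (erythroblasts or progenitors, labelled Plek2+/+ or Plek2-/-) held 2 libraries. Nothing in the labels ties a library to 1 mouse or to a pool of mice, so p-values refer to the spread between these libraries, which may be technical.

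Neutrophils mature in the marrow, are held there, and are released into the blood when signals through competing chemokine receptors change. Cxcr4 binds Cxcl12 made by marrow stroma and holds neutrophils, stem cells and B cell precursors in place, whereas Cxcr2 binds Cxcl1 and Cxcl2 and promotes neutrophil release and migration to inflamed tissue. Each of the 7 receptors is coupled to inhibitory G proteins. Itgam (CD11b) and Itgb2 (CD18) pair to form Mac-1, the main adhesion receptor of neutrophils and monocytes. Neither TER119-positive erythroblasts nor early Kit-positive progenitors are known for Fpr1, Fpr2 or C5ar1, which belong to mature myeloid cells, while Cxcr4 is made by many marrow cells.

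The 9 genes lie at separate loci except for the formyl peptide receptors, which are neighbours. In GENCODE vM21 on GRCm38, which is the deposited build mm10, Fpr1 spans chr17:17876471-17883940 on the minus strand and Fpr2 chr17:17887824-17893952 on the plus strand, so the genes point away from each other with 3883 bases between them. Fpr2 shares 6101 bases of its span, on the same strand, with its close relative Fpr3, which was listed at 0 in 6 libraries and at 1 and 2 reads in the progenitors labelled Plek2-/-. How the authors' counting treated reads shared by these paralogs is not stated, and their values are uncertain to that extent. Cxcr2 spans chr1:74153989-74161246 (plus strand), Cxcr4 chr1:128588199-128592293 (minus), Ccr1 chr9:123962124-123968692 (minus), C5ar1 chr7:16246743-16259540 (minus), Ltb4r1 chr14:55765962-55768494 (plus) and Itgb2 chr10:77530252-77565708 (plus). Itgam spans chr7:128062640-128118491 (plus), where the annotation also places the protein-coding gene model Gm49368 over 55809 bases on the same strand. How the authors' counting treated reads shared by Itgam and Gm49368 is likewise not stated.

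The 250 bases before the start of a gene are shown for Cxcr2, Fpr2 and Itgam, whose RNA differed between the progenitor groups, and for Cxcr4, whose RNA was not called different. The sequences come from RefSeq on GRCm38.p6, 8 of the 9 genes had an entry, and each is written 5′ to 3′ on the gene's own strand (chr1:74153744-74153993 for Cxcr2, chr17:17887574-17887823 for Fpr2, chr7:128062390-128062639 for Itgam and chr1:128592300-128592549, minus strand, for Cxcr4). Capitals mark GAGGAA, the core bound by the myeloid factor PU.1, or its reverse complement TTCCTC.
Cxcr2: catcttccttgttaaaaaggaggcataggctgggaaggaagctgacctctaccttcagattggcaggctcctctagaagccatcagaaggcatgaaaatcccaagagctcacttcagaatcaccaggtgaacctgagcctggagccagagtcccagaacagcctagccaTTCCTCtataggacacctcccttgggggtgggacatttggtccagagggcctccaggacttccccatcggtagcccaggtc
Fpr2: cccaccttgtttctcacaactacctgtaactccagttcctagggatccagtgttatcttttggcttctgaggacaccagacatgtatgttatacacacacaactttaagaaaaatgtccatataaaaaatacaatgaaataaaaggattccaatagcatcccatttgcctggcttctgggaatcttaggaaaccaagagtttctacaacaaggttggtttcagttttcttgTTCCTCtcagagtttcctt
Itgam: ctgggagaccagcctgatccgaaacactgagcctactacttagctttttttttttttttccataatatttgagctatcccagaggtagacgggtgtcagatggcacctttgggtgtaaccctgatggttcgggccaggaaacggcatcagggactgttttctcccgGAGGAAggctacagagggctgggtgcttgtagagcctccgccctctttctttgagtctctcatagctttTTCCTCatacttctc
Cxcr4: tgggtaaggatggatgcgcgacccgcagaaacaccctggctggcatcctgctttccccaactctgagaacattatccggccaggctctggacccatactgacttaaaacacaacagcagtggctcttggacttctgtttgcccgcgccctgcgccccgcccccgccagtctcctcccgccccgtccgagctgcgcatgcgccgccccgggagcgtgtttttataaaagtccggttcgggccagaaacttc

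Itgam held GAGGAA starting 84 bases and TTCCTC 15 bases before its start, Cxcr2 held TTCCTC at 81 bases and Fpr2 at 19 bases. The Cxcr4 stretch held neither form. On both strands, GAGGAA stood in 5 of the 8 promoters, those 3 plus Ccr1 and Ltb4r1, against 23.3% of 32851 promoter windows of the same length. Fpr1 and C5ar1, whose RNA also rose in progenitors labelled Plek2-/- and whose stretches are not shown, held neither form. The C/EBP core TTGCNNAA stood in 0 of 8 (9.56% of all windows) and the RUNX core TGTGGT in 3 of 8, C5ar1, Ccr1 and Ltb4r1 (14% of all windows). No 2 of these motifs overlapped in the 8 stretches. A match shows only that the letters are present, and no binding was measured.

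Library totals ran from 16038035 to 23521726 counts, and levels are given as counts per 1000000 (CPM) scaled by the TMM method over the 8 libraries, where 3 counts equal 0.0982 to 0.235 CPM. Plek2 had 1770 and 1894 reads in Plek2+/+ erythroblasts and 616 and 781 in those labelled Plek2-/-, but 29 and 21 in Plek2+/+ progenitors and 130 and 173 in those labelled Plek2-/-, so the progenitor counts go against the genotype label and group names are labels throughout. Xist, which marks female cells, stood at 2522 to 3042 CPM in the 4 libraries labelled Plek2+/+ and at 2.13 to 3.60 CPM in the 4 labelled Plek2-/-. Sex and the Plek2 label therefore cannot be told apart in any comparison below between the labels, or in differences between such comparisons. The population labels matched their defining genes: 11 erythroid markers summed to 41904 to 45480 CPM in the erythroblasts and 1050 to 1161 CPM in the progenitors, and Kit stood at 16.2 to 21.2 CPM in erythroblasts and 117 to 163 CPM in progenitors. All 4 groups also held RNA of mature neutrophils, with 12 markers (S100a8, S100a9, Mmp8, Csf3r and others) that summed to 13129 and 15400 CPM (Plek2+/+) or 9688 and 10493 CPM (Plek2-/-) in erythroblasts. In progenitors the sums were 3203 and 5068 CPM (Plek2+/+) and 12782 and 16164 CPM (Plek2-/-). Most of each sum came from S100a8 and S100a9, with means of 5076 and 7389 CPM in Plek2+/+ erythroblasts and 1307 and 1956 CPM in Plek2+/+ progenitors. Mxd1 had another pattern, with means of 503 (Plek2+/+) and 509 CPM (Plek2-/-) in erythroblasts against 93.0 and 210 CPM in progenitors. None of those 12 markers was at 0 in any group, and in bulk RNA fewer cells of a type and less RNA per cell cannot be told apart.

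**Figure D1:**
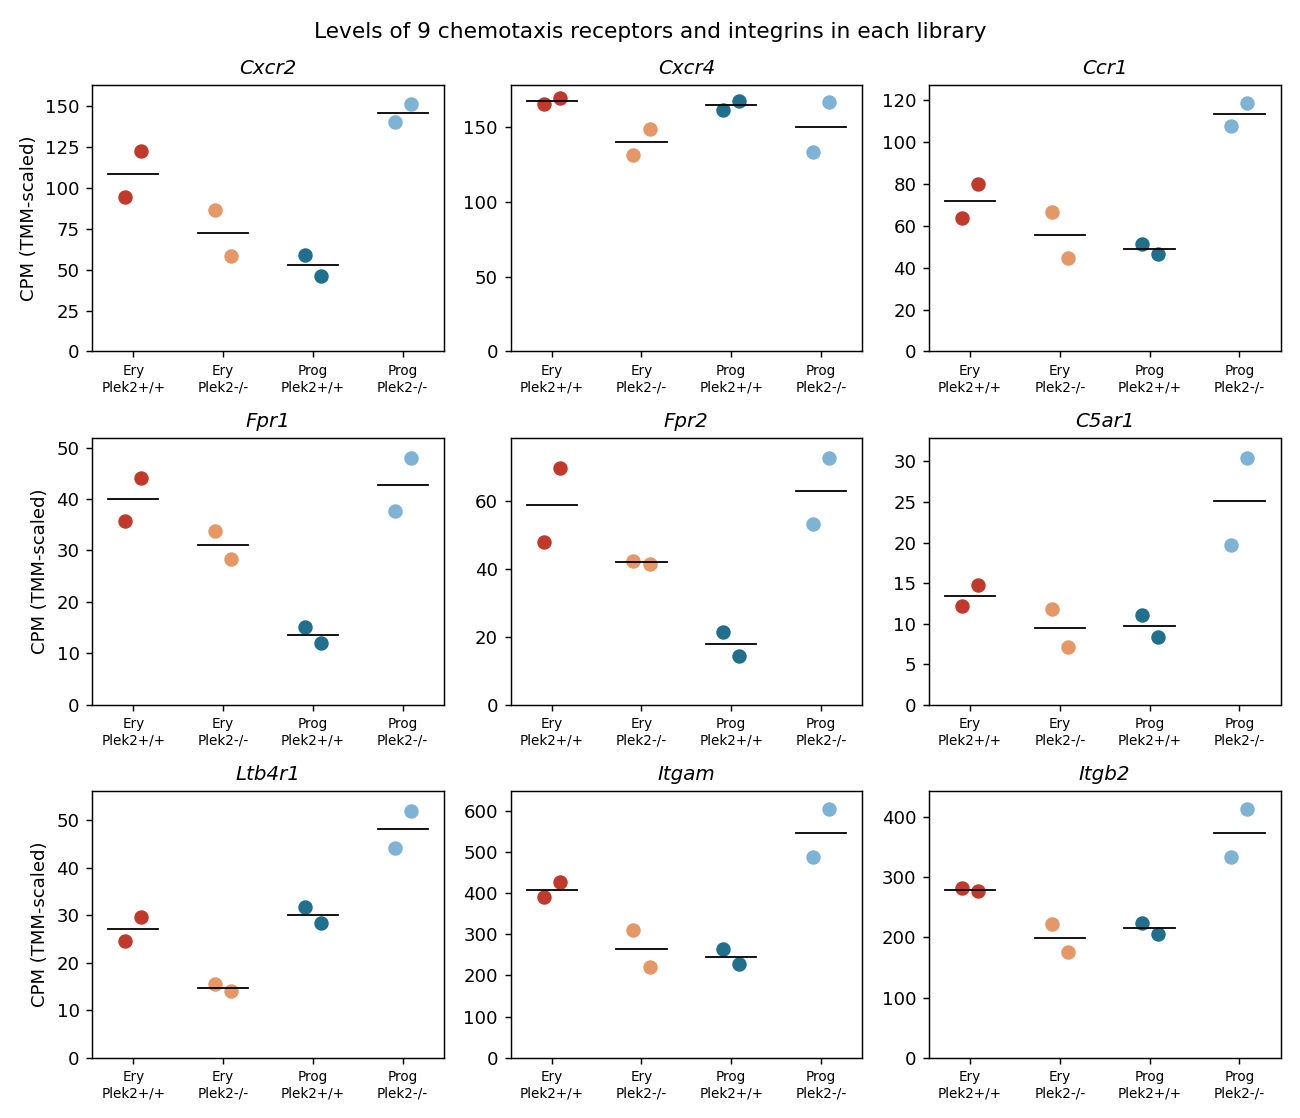
Level of each of the 9 genes in each library, in TMM-scaled CPM (vertical axis, from 0), for erythroblasts (Ery) and progenitors (Prog) by Plek2 label. Points are libraries and lines are means of 2; for 8 genes the progenitors labelled Plek2-/- stand above the Plek2+/+ progenitors, from 140 and 151 against 45.9 and 59.2 CPM for Cxcr2 to 44.1 and 52.0 against 28.4 and 31.8 CPM for Ltb4r1, while Cxcr4 lies between 132 and 170 CPM in each group.

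Per kilobase of merged exons, which allows genes to be compared, Cxcr4 and the 2 integrin chains were the most abundant of the 9 in each group and C5ar1, the receptor of the complement fragment C5a, the least. In Plek2+/+ progenitors Cxcr4 led at 91.0 ± 2.36 CPM per kilobase (SD, n = 2), ahead of Itgb2 at 70.5 ± 4.44 and Itgam at 48.8 ± 5.18 (SD, n = 2 each). Ltb4r1, Cxcr2, Ccr1, Fpr2 and Fpr1 followed at 21.6, 17.3, 17.2, 13.8 and 10.2 CPM per kilobase, with each neighbouring pair closer than the sum of its SDs (at most 3.99 each), and C5ar1 closed the order at 3.78 ± 0.748 (SD, n = 2). In progenitors labelled Plek2-/- the order began with Itgb2 at 123 ± 18.4, Itgam at 109 ± 16.2 and Cxcr4 at 83.1 ± 13.2 CPM per kilobase (SD, n = 2 each), with each neighbouring pair of means closer than the sum of its SDs.

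The erythroblast groups shared 1 order on this scale. Plek2+/+ erythroblasts held Cxcr4 at 92.8 ± 1.44 and Itgb2 at 91.6 ± 1.21 CPM per kilobase (SD, n = 2 each), an order that turns with the longest transcript as the length, then Itgam at 81.3, Fpr2 at 45.4, Cxcr2 at 35.6, Fpr1 at 30.2, Ccr1 at 25.4, Ltb4r1 at 19.5 and C5ar1 at 5.24. Erythroblasts labelled Plek2-/- held the same genes at 77.6, 65.2, 52.7, 32.3, 23.8, 23.5, 19.6, 10.6 and 3.67 CPM per kilobase. Fpr2, Cxcr2 and Fpr1 thus stood above Ltb4r1, the leukotriene B4 receptor, in both erythroblast groups, whereas its mean stood above theirs in Plek2+/+ progenitors.

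In progenitors, 8 of the 9 genes rose in the libraries labelled Plek2-/- and Cxcr4 did not pass the test. The median log2 fold change of the 9 was 1.25, against -0.01 over the 13168 genes tested. By edgeR's quasi-likelihood test at an adjusted p below 0.05, 4.91% of all tested genes were called, 4.50% higher and 0.402% lower (593 and 53 genes, or 527 and 133 when only library totals were used for scaling). For the same 8 genes both libraries labelled Plek2-/- lay above both Plek2+/+ libraries, a separation that 19.0% of tested genes showed. Summed over the 9 genes, the level was 756 and 840 CPM in Plek2+/+ progenitors and 1359 and 1658 CPM in those labelled Plek2-/-.

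Among chemokine receptors, Cxcr2 had 1262 and 1363 reads in Plek2+/+ progenitors against 3603 and 4626 in the Plek2-/- pair, or 52.6 ± 9.40 and 146 ± 7.93 CPM (SD, n = 2 each). The groups were far apart relative to their spread, at a log2 fold change of 1.52 (95% interval 1.25 to 1.79). Ccr1, a receptor of Ccl3 and Ccl5 on neutrophils and monocytes, had 1088 and 1381 against 2761 and 3619 reads and rose 2.39-fold (edgeR adjusted p = 0.000525), the lowest adjusted p of the 9. Cxcr4 had 3442 and 4973 reads in Plek2+/+ and 3423 and 5104 in Plek2-/- progenitors, or 162 and 168 against 133 and 167 CPM. Its groups overlapped, and the fitted log2 fold change was -0.09 (95% interval -0.32 to 0.14, edgeR adjusted p = 0.721). Without Plek2-/- replicate 2, Cxcr4 was called lower (log2 -0.26, edgeR adjusted p = 0.00203), and without Plek2-/- replicate 1 its value was 0.06, so the 2 libraries of that group decide it.

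The formyl peptide receptors, which sense peptides released by bacteria and damaged mitochondria, had the largest rises of the 9. Fpr1 had 321 and 356 reads in Plek2+/+ and 966 and 1468 in Plek2-/- progenitors, or 13.5 ± 2.17 and 42.8 ± 7.40 CPM (SD, n = 2 each), and rose 3.29-fold (edgeR adjusted p = 0.00147). Fpr2, which also binds annexin A1, had 458 and 421 against 1367 and 2217 reads, or 17.8 ± 5.17 and 62.9 ± 13.7 CPM (SD, n = 2 each), and rose 3.67-fold (log2 1.88, 95% interval 1.41 to 2.35, edgeR adjusted p = 0.00233). The intervals of Fpr1 and Fpr2 overlap, and the difference between them was not tested. C5ar1 had 236 and 248 against 506 and 930 reads and rose 2.69-fold (edgeR adjusted p = 0.00887), with the widest interval of the 9 (log2 0.92 to 1.93). Ltb4r1, which senses the lipid leukotriene B4, had 677 and 843 against 1132 and 1589 reads and rose 1.65-fold (edgeR adjusted p = 0.00683). It was the 1 gene whose call was lost without a single library, Plek2+/+ replicate 2 (edgeR adjusted p = 0.0610).

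Both chains of Mac-1 rose in the progenitors labelled Plek2-/-. Itgam had 5619 and 6733 reads in Plek2+/+ and 12553 and 18430 in Plek2-/- libraries, or 264 and 227 against 489 and 603 CPM, a 2.29-fold rise (SE of the log2 value 0.12, edgeR adjusted p = 0.00190). Itgb2, the partner chain of several leukocyte integrins, had 4791 and 6104 against 8596 and 12649 reads, or 225 and 206 against 335 and 414 CPM, a 1.79-fold rise (log2 0.84, SE 0.10, edgeR adjusted p = 0.00373). No library of one label overlapped those of the other for either chain.

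In erythroblasts the log2 values of the 9 genes were negative, opposite in sign to progenitors for all but Cxcr4, which was negative in both. Of the 9, 3 passed the test: Ltb4r1, Itgam and Itgb2 fell in the libraries labelled Plek2-/-. Called genes made up 2.84% of the 12241 tested, 2.66% lower and 0.180% higher. The median log2 fold change of the 9 was -0.48 (range -0.87 to -0.25), against 0.01 over all tested genes. For 8 of the 9, all but Ccr1, both Plek2-/- libraries lay below both Plek2+/+ libraries, which 23.9% of tested genes showed. The summed level of the 9 was 1117 and 1234 CPM in Plek2+/+ and 921 and 738 CPM in Plek2-/- erythroblasts.

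**Figure D2:**
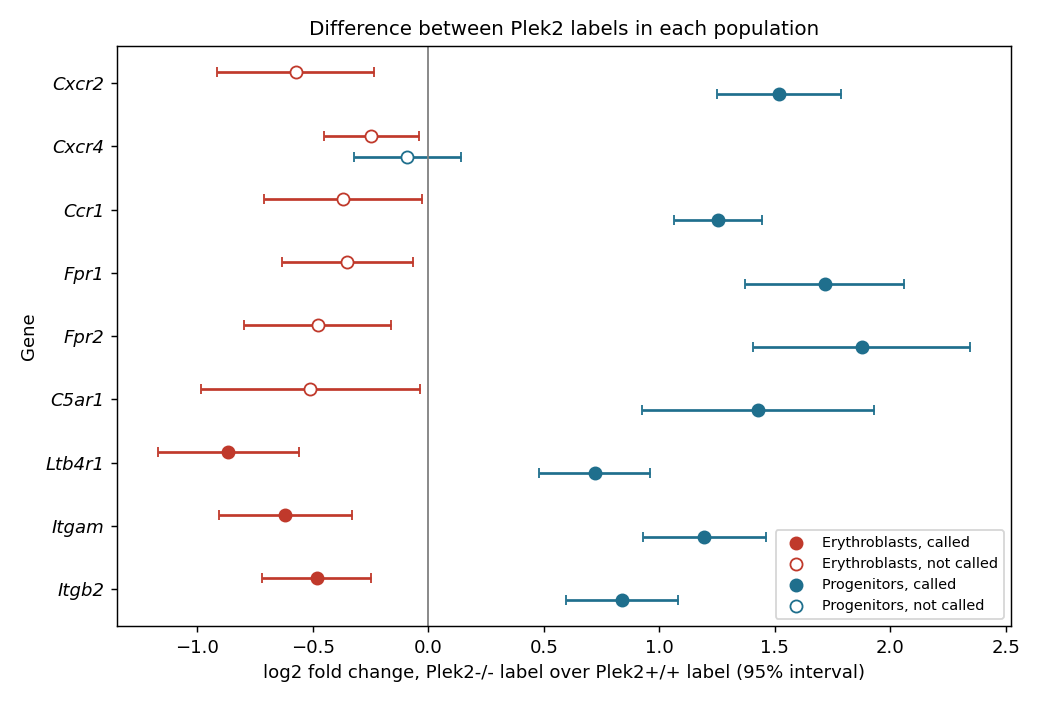
Fitted log2 fold change of each gene between the Plek2 labels (horizontal axis, positive is higher in libraries labelled Plek2-/-), with its 95% interval, in erythroblasts (red) and progenitors (blue); filled points passed the edgeR test and open points did not. In progenitors 8 genes lie between 0.72 and 1.88 and Cxcr4 at -0.09, and in erythroblasts the 9 lie between -0.87 and -0.25.

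Ltb4r1 had 402 and 437 reads in Plek2+/+ and 199 and 206 in Plek2-/- erythroblasts, or 24.6 and 29.7 against 15.6 and 14.0 CPM, and fell 1.82-fold (log2 -0.87, 95% interval -1.17 to -0.56, edgeR adjusted p = 0.0105). Itgam had 6376 and 6291 against 3960 and 3232 reads, or 390 and 427 against 310 and 220 CPM, and fell 1.54-fold (edgeR adjusted p = 0.0286). Itgb2 had 4609 and 4079 against 2848 and 2576 reads, or 282 and 277 against 223 and 175 CPM, and fell 1.40-fold (edgeR adjusted p = 0.0341). In each of these genes the Plek2-/- libraries were the lower pair, and for the integrin chains Plek2-/- replicate 2 was the lowest library.

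The other 6 genes did not pass the test in erythroblasts. Cxcr2 had 1545 and 1804 reads in Plek2+/+ and 1106 and 862 in Plek2-/- libraries, or 94.5 and 122 against 86.5 and 58.6 CPM (log2 -0.57, 95% interval -0.92 to -0.23, edgeR adjusted p = 0.0759). Fpr2 had 783 and 1029 against 541 and 610 reads (log2 -0.48, edgeR adjusted p = 0.119) and Fpr1 had 584 and 650 against 433 and 418 (log2 -0.35, edgeR adjusted p = 0.214). C5ar1, the least abundant, had 198 and 218 against 151 and 104 reads (log2 -0.51, edgeR adjusted p = 0.294). Ccr1 had 1042 and 1180 against 848 and 656 reads, and its groups overlapped at 63.8 and 80.1 against 66.3 and 44.6 CPM (log2 -0.37, edgeR adjusted p = 0.290). Cxcr4 had 2711 and 2499 against 1682 and 2194 reads, or 166 and 170 against 132 and 149 CPM (log2 -0.25, edgeR adjusted p = 0.224). The 95% intervals of these 6 lie below 0 before adjustment over all genes.

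The number of erythroblast calls among the 9 rested on single libraries. Without Plek2+/+ replicate 1 or without Plek2-/- replicate 2, Ltb4r1 alone was called, and without Plek2+/+ replicate 2 none was (Ltb4r1 adjusted p = 0.102, Itgam 0.158, Itgb2 0.142 by edgeR). Without Plek2-/- replicate 1, 7 were called, the 3 named above with Cxcr2, Ccr1, Fpr1 and C5ar1.

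The difference between the label effects of the populations was itself tested, in 1 fit of the 8 libraries, and was called for 8 of the 9 genes. In this fit 5.55% of 13365 genes were called, 5.32% with a lower effect in erythroblasts than in progenitors and 0.232% with a higher one. The erythroblast minus progenitor difference in log2 fold change was -2.32 for Fpr2 (95% interval -2.94 to -1.70), -2.06 for Cxcr2 (-2.58 to -1.54) and -2.03 for Fpr1 (-2.51 to -1.56). It was smallest among the called genes for Itgb2, at -1.29 (-1.66 to -0.92). For Cxcr4 it was -0.12 (95% interval -0.44 to 0.19, edgeR adjusted p = 0.697), and this value changes sign to 0.05 without the progenitor Plek2-/- replicate 2. The other 8 calls held without any 1 of the 8 libraries. This comparison shares its libraries with the 2 label comparisons and adds no separate samples.

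Levels in erythroblasts and progenitors depend on how the libraries are scaled. TMM factors were 0.738 to 0.772 in erythroblast and 1.30 to 1.33 in progenitor libraries, and without them the median log2 difference of all genes between the populations moved from -0.06 to -0.87 in Plek2+/+ and from -0.07 to -0.86 in Plek2-/- libraries. With TMM, 6 of the 9 were higher and 0 lower in erythroblasts than in progenitors among Plek2+/+ libraries, where 73.8% of all genes were called, 36.0% higher and 37.8% lower. For 7 of the 9 both erythroblast libraries lay above both progenitor libraries, against 42.6% of genes. With library totals only, 2 were called higher (Fpr1 and Fpr2) and 3 lower (Cxcr4, Ltb4r1 and Itgb2), and the calls over all genes split into 2111 higher and 9171 lower in place of 4818 and 5047. Fpr2 stood furthest toward the erythroblasts, at a log2 difference of 1.73 with TMM (95% interval 1.28 to 2.18), followed by Fpr1 at 1.57 (1.22 to 1.91) and Cxcr2 at 1.05 log2 units, which was not called with library totals only (0.23, edgeR adjusted p = 0.207). Ccr1 (0.56), Itgam (0.74) and Itgb2 (0.38) were called higher with TMM, and C5ar1 (0.48, edgeR adjusted p = 0.0965), Ltb4r1 (-0.15, 0.286) and Cxcr4 (0.03, 95% interval -0.19 to 0.25) were not. Without erythroblast Plek2+/+ replicate 2 the Ccr1 call was lost (edgeR adjusted p = 0.0524), and without progenitor Plek2+/+ replicate 2 that of Itgb2 (0.0877). Direction held under both scalings for Fpr1, Fpr2, Cxcr2 and Ltb4r1 and turned for Cxcr4, Ccr1, C5ar1, Itgam and Itgb2.

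Among libraries labelled Plek2-/- the 8 genes other than Cxcr4 were lower in erythroblasts than in progenitors, and 76.7% of all genes were called, 39.2% lower and 37.5% higher (5242 lower and 5009 higher, or 8957 and 2307 with library totals only). Their libraries did not overlap between populations, as for 45.7% of genes in that direction. The direction of the 9 was the same under both scalings. Ltb4r1 was 3.26-fold lower (edgeR adjusted p = 6.54e-08), C5ar1 2.69-fold, Itgam 2.06-fold, Ccr1 2.04-fold, Cxcr2 2.02-fold and Itgb2 1.88-fold lower. Fpr2 and Fpr1 differed least, at log2 values of -0.59 and -0.46. Both calls were lost without progenitor Plek2-/- replicate 2 (edgeR adjusted p = 0.165 and 0.143), Fpr1 also without erythroblast Plek2-/- replicate 2 (edgeR adjusted p = 0.0975), and Fpr2 with DESeq2 (adjusted p = 0.112). Cxcr4 stood at -0.10 (edgeR adjusted p = 0.395), was called lower with library totals only (-0.88, edgeR adjusted p = 2.22e-06) and lower without progenitor Plek2-/- replicate 1 (-0.25, edgeR adjusted p = 0.0317).

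**Figure D3:**
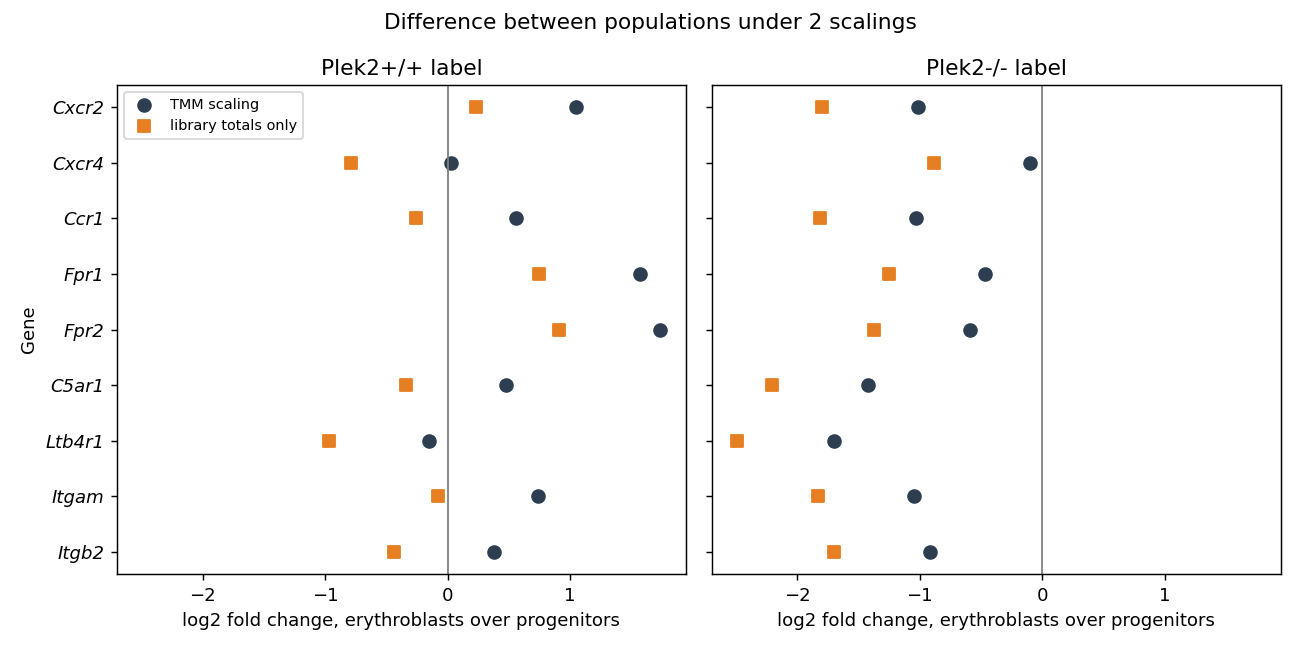
Fitted log2 fold change of each gene, erythroblasts over progenitors (horizontal axis), in libraries labelled Plek2+/+ (left) and Plek2-/- (right), with TMM scaling (circles) and with library totals only (squares). The squares lie about as far left as the median of all genes moves, from -0.06 to -0.87 in the left panel, so that 5 genes cross 0 there, and on the right the 9 squares and 9 circles lie below 0.

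Ratios of reads between genes of 1 library need no scaling, and that of Cxcr2 to Cxcr4 differed between the labelled groups of progenitors. In progenitors there were 0.367 and 0.274 Cxcr2 reads for each Cxcr4 read in the Plek2+/+ pair against 1.05 and 0.906 in the Plek2-/- pair. The erythroblast libraries held 0.570 and 0.722 in Plek2+/+ and 0.658 and 0.393 in Plek2-/-, and these ranges overlap. Cxcr4 accordingly took 19.2% and 22.2% of the reads of the 9 genes in Plek2+/+ progenitors, 9.81% and 10.1% in those labelled Plek2-/-, and 13.7% to 20.2% in the erythroblasts.

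The Mac-1 chains kept a narrower relation. Itgam reads per Itgb2 read were 1.17 and 1.10 in Plek2+/+ progenitors, 1.46 and 1.46 in Plek2-/- progenitors, and 1.25 to 1.54 in the erythroblasts. Ltb4r1 had its highest share relative to Cxcr2 in Plek2+/+ progenitors, at 536 and 618 reads for 1000 Cxcr2 reads, against 314 and 343 in progenitors labelled Plek2-/- and 180 to 260 in erythroblasts. Fpr2 reads per Fpr1 read stayed between 1.18 and 1.58 in the 8 libraries. These ratios are descriptions and were not tested.

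**Figure D4:**
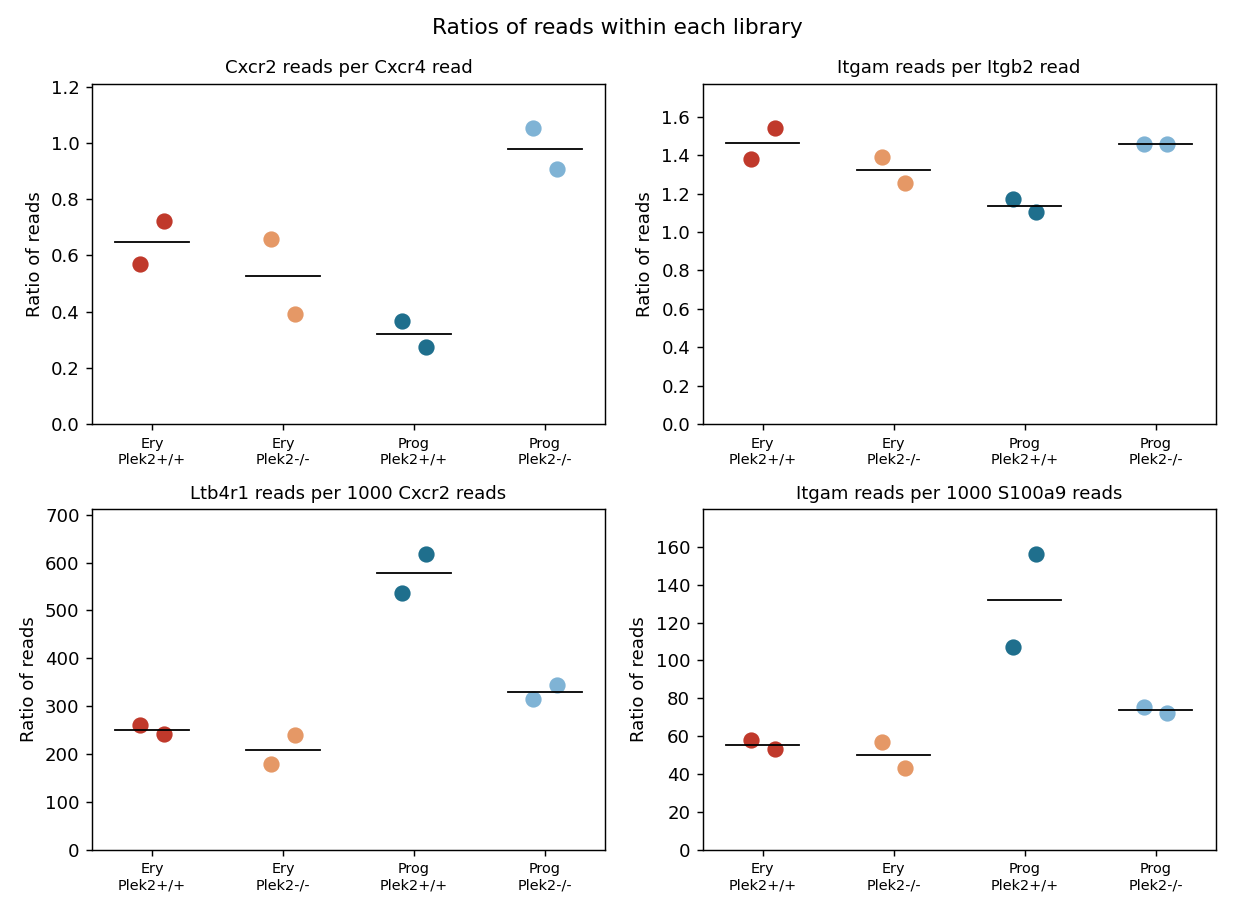
Ratios of reads between genes within each library (vertical axes, from 0) by population and Plek2 label; points are libraries and lines are means of 2. Plek2+/+ progenitors have the lowest Cxcr2 per Cxcr4 (0.274 and 0.367) and Itgam per Itgb2 (1.10 and 1.17), and the highest Ltb4r1 per 1000 Cxcr2 (536 and 618) and Itgam per 1000 S100a9 reads (107 and 156). The level of S100a9 was lowest in that group.

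Set beside S100a9, an abundant neutrophil cytosol protein gene, the 9 genes took different shares. S100a9 itself had means of 7389 CPM in Plek2+/+ and 5259 CPM in Plek2-/- erythroblasts, and of 1956 and 7423 CPM in the progenitors. It was lowest in Plek2+/+ progenitors, which raises each ratio there, so a high ratio in that group is not a high receptor level. Itgam reads per 1000 S100a9 reads were 107 and 156 in Plek2+/+ progenitors, 75.2 and 72.2 in those labelled Plek2-/-, and 43.2 to 57.7 in the 4 erythroblast libraries. Cxcr2 reads per 1000 S100a9 reads were 24.1 and 31.6, 21.6 and 18.1, and 11.5 to 15.9 in the same order of groups. For 8 of the 9, all but Fpr1, both Plek2+/+ progenitor libraries lay above the 4 erythroblast libraries on this ratio, and for 6 of the 9 the Plek2-/- progenitor libraries did. The exceptions among the latter were Fpr1 (5.75 to 5.79 in Plek2-/- progenitors against 5.29 to 6.24 in erythroblasts), Fpr2 (8.19 to 8.69 against 7.09 to 8.70) and Cxcr4 (20.005 to 20.5 against 21.1 to 29.3). With TMM scaling S100a9 was 3.78-fold lower in Plek2+/+ progenitors than in Plek2+/+ erythroblasts, and the first count follows in part from that divisor. The share of all genes with such ratios was not determined, so neither count is a result about the 9 genes. These ratios were not tested.

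Markers of neutrophils changed in both populations, and Cxcr4 was not called in either. All 12 tested mature neutrophil markers rose in progenitors labelled Plek2-/- (median log2 1.39), as did 8 of 8 secondary granule markers (median 1.92), and these counts stayed at 12 and 8 with any 1 library left out. In erythroblasts 6 of 12 mature neutrophil markers fell (median -0.51) and 7 of 8 secondary granule markers (median -0.62). Those counts rest on single libraries: the 6 became 1 without Plek2+/+ replicate 1, 0 without Plek2+/+ replicate 2 and 2 without Plek2-/- replicate 2, and the 7 became 3, 2 and 3. Without Plek2-/- replicate 1 they were 8 and 7. The part of these markers in the result was not tested.

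Of 8 primary granule markers, which belong to promyelocytes, 2 rose in progenitors labelled Plek2-/- (Fcnb and Cebpe, list median 0.12). In erythroblasts 3 fell (Mpo, Prtn3 and Cebpe, list median -0.40). These counts depended on single libraries, and with 1 left out some of the 8 were called lower in progenitors. The list median then ran from 0.02 to 0.23 in progenitors and from -0.50 to -0.33 in erythroblasts. Of the monocyte and macrophage markers, 0 of 15 rose and 1 fell in progenitors (Ly86, list median -0.13), and 0 of 16 passed in erythroblasts (list median -0.25). With 1 library left out, 0 to 4 of them rose and 0 to 6 fell in progenitors, and 0 to 6 fell in erythroblasts. The 16 summed to 2235 and 2522 CPM in Plek2+/+ and 1838 and 2037 CPM in Plek2-/- progenitors. Members of that list had log2 values of both signs in progenitors, among them F13a1 at -0.39, Irf8 at -0.27, Csf1r at -0.27, Vcam1 at 0.78, C1qb at 0.74 and C1qa at 0.65. These 6 were chosen after their values were seen, and none was called.

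B cell precursors also carry Cxcr4. Of 10 B cell markers 5 fell in erythroblasts labelled Plek2-/- (list median -0.82) and 0 passed in progenitors (list median 0.15), with summed levels of 132 to 158 against 63.5 to 94.7 CPM in erythroblasts and 192 to 251 CPM over the 4 progenitor libraries. The 5 became 0 without either Plek2+/+ library, 9 without Plek2-/- replicate 1, and 2 without Plek2-/- replicate 2 or with library totals only, and 4 rose in progenitors without Plek2-/- replicate 1. Of the 9 eosinophil, basophil and mast cell markers 4 fell in erythroblasts (list median -0.56, summed levels 2097 to 2500 against 891 to 1328 CPM; 1 without Plek2+/+ replicate 2). In progenitors 0 passed (list median -0.44, summed levels 2459 to 3151 against 1055 to 2109 CPM), but 7 fell without either Plek2-/- library and 3 with library totals only. Of the T and NK cell markers 1 (Il7r) of 9 tested fell in erythroblasts and 0 of 10 passed in progenitors. Their median in progenitors moved from -0.12 to -0.35 without Plek2-/- replicate 2. Of the 10 megakaryocyte markers 0 passed in erythroblasts and 1 (Pf4, higher) in progenitors, where 0 passed with library totals only. The T and NK counts and the progenitor megakaryocyte count also depended on single libraries. Of 11 erythroid markers 0 passed in either population, and 6 rose in progenitors without Plek2-/- replicate 1. Of the stem and progenitor markers 1 of 12 fell in erythroblasts (Sfpi1, which encodes PU.1, log2 -0.61) and 0 of 13 passed in progenitors, where 3 rose and 4 fell without Plek2-/- replicate 1. The part of these cell types in the result was not tested.

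**Figure D5:**
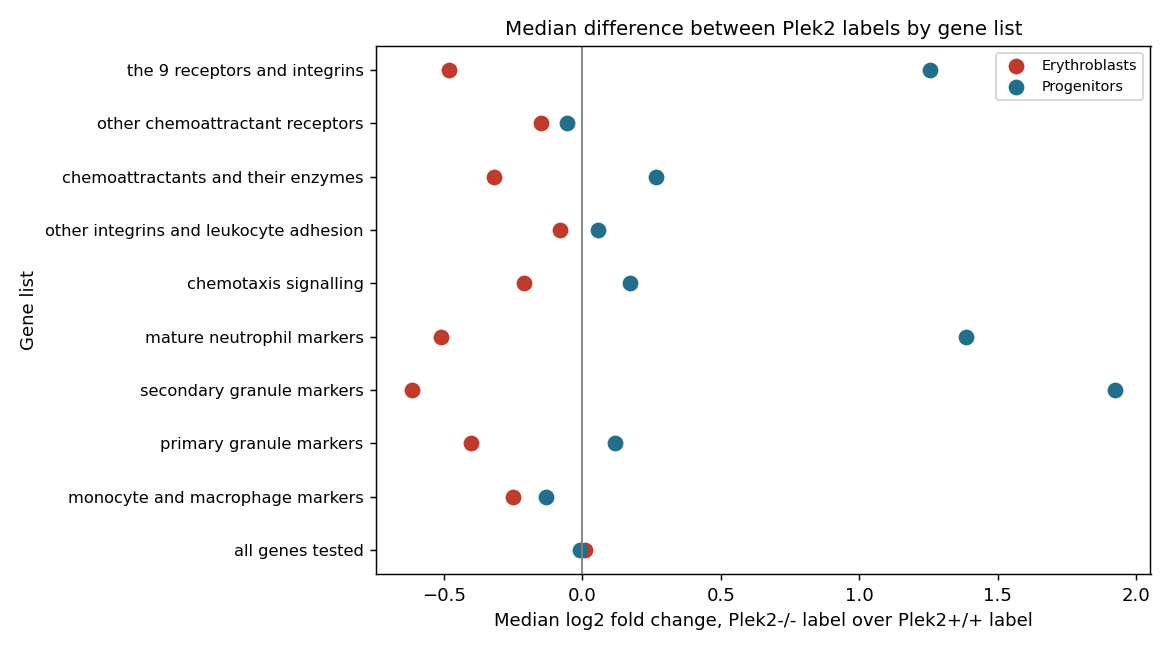
Median log2 fold change between the Plek2 labels (horizontal axis, positive is higher in libraries labelled Plek2-/-) over the tested genes of each list, in erythroblasts (red) and progenitors (blue). The 9 genes stand at -0.48 and 1.25, next to mature neutrophil markers at -0.51 and 1.39, while other chemoattractant receptors stand at -0.15 and -0.05 and all tested genes at 0.01 and -0.01. Lists of further cell types are not drawn, among them eosinophil, basophil and mast cell markers (-0.56 and -0.44) and B cell markers (-0.82 and 0.15).

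Of 26 other receptors for attractants, 19 were tested in erythroblasts and 24 in progenitors, and 1 passed in each, beside 2.84% and 4.91% of all tested genes. In erythroblasts 1 fell, S1pr4, a sphingosine 1-phosphate receptor of lymphoid and myeloid cells, with means of 27.5 and 16.7 CPM (SDs 0.0533 and 0.787, edgeR adjusted p = 0.0135, lost without either Plek2+/+ library at 0.119 and 0.0978). In progenitors 1 rose, Gpr77 (C5ar2), the second C5a receptor, with means of 7.27 and 13.3 CPM (SDs 0.938 and 2.02, edgeR adjusted p = 0.0137, lost without Plek2+/+ replicate 2 at 0.0924). The median of the list was -0.15 in erythroblasts and -0.05 in progenitors. These calls depended on single libraries, and with 1 left out some receptors of the list were called lower in progenitors. The list median then ran from -0.52 to -0.07 in erythroblasts and from -0.11 to 0.03 in progenitors.

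Of 22 attractants and the enzymes that make them, 4 of 17 tested fell in erythroblasts and 6 of 18 rose in progenitors labelled Plek2-/-. Anxa1, which encodes an Fpr2 ligand abundant in neutrophils, fell 1.59-fold in erythroblasts (means 762 and 475 CPM, SDs 151 and 45.4, edgeR adjusted p = 0.0179) and rose 2.56-fold in progenitors (means 318 and 789 CPM, SDs 45.6 and 134, edgeR adjusted p = 0.00190). Its erythroblast call was lost without Plek2+/+ replicate 2 (0.124) or Plek2-/- replicate 2 (0.0841). Alox5, the first enzyme of leukotriene synthesis, rose 1.82-fold in progenitors (edgeR adjusted p = 0.00302), and complement C3 fell 1.40-fold in erythroblasts (edgeR adjusted p = 0.0176, lost without either Plek2+/+ library at 0.191 and 0.0677). The counts of this list depended on single libraries, and with 1 left out some of its genes were called lower in progenitors. Its median then ran from -0.38 to -0.16 in erythroblasts and from 0.17 to 0.31 in progenitors.

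Among 28 other integrins and leukocyte adhesion genes, 5 fell in erythroblasts and 3 rose in progenitors labelled Plek2-/-. Itgb2l, a neutrophil integrin chain related to Itgb2, fell 1.57-fold (edgeR adjusted p = 0.0135) and rose 3.76-fold (edgeR adjusted p = 0.00594). Cd177, a neutrophil surface protein that associates with Mac-1, fell 1.70-fold (edgeR adjusted p = 0.0106) and rose 3.47-fold (edgeR adjusted p = 0.00476). Without Plek2+/+ replicate 2 neither was called in erythroblasts (0.121 and 0.0858). Medians of the list were -0.08 and 0.06. Both counts depended on single libraries, and with 1 left out calls in the opposite direction also appeared in each population. The medians then ran from -0.23 to -0.06 in erythroblasts and from 0.02 to 0.10 in progenitors.

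Of 47 genes that carry the signal from these receptors to the cytoskeleton, 13 fell and 1 (Rgs1) rose in erythroblasts, and 7 rose in progenitors. Fgr, a Src-family kinase that acts downstream of Mac-1, rose 2.0-fold in progenitors (edgeR adjusted p = 0.00190). Plcg2 fell 1.62-fold and Rac2, the GTPase of neutrophil movement, 1.39-fold in erythroblasts (edgeR adjusted p = 0.00950 and 0.0146, both lost without either Plek2+/+ library at 0.0677 to 0.135). Medians were -0.21 and 0.17, and leaving out 1 library gave 0 to 23 lower in erythroblasts and 3 to 28 higher in progenitors.

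Pearson's r of log2(CPM + 1) was taken across the 8 libraries, which fall into 4 groups. Among the 8 genes other than Cxcr4 it ran from 0.17 to 0.99 (median 0.82 over 28 pairs). The lowest values were those of Ltb4r1 with Fpr1 (0.17), Fpr2 (0.21) and Cxcr2 (0.56). Cxcr4 had r from -0.19 to 0.31 with the 8, the highest with Ltb4r1. Of 10077 other genes with a mean of at least 5 CPM, the 5 most like Cxcr2 were Slfn4 (r = 0.995), Slc2a3 (0.993), Slfn1 (0.988), Rap2c (0.987) and Cd300lf (0.986). Slfn4 had 324, 212, 151 and 476 CPM and Slc2a3, a glucose transporter, 188, 137, 111 and 223 CPM as group means, erythroblasts before progenitors and Plek2+/+ before Plek2-/-. The 5 most like Cxcr4 were Dusp10 (0.929), Sphk2 (0.917), Zfp646 (0.908), Acd (0.882) and Med16 (0.869). These correlations are over the same 8 libraries and share their depth and scaling. The genes named as most like Cxcr2 or Cxcr4 were picked as the highest of 10077, so their r is high in part by that choice. Cxcr4 itself varied little, from 132 to 170 CPM. The correlations were not tested.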

How the data were processed

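RNA sequencing measured gene expression in 8 libraries, 2 in each of 4 groups taken from the labels' titles. The authors deposited raw counts (whole reads per gene symbol), which were used as deposited. Their table of normalized values was not used here. Per the submitters' processing notes, build mm10 and the tools STAR 2.5.2a, DESeq2 1.14.1, cutadapt 1.13 and HTSeq 0.6.1pl were named. For the annotation, the strand setting and each tool's role, the entry is: not given in the sources used here. RNA was extracted with TRIzol, per the labels' protocols.

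Genes were tested by edgeR's quasi-likelihood method (edgeR 4.0.16 under R 4.3.3), after filterByExpr with its defaults and TMM factors, with the Benjamini-Hochberg adjustment over all tested genes, and called at 0.05. The label effects were fitted within each population, and the other contrasts in 1 fit of 4 group means. All 9 genes passed the filter in each fit. SEs and 95% intervals derive from the quasi-likelihood F and its degrees of freedom. The test was also run on simulated counts with equal group means, apart from planted changes, and the same spread for every gene. These settings differ from the libraries here and the outcome is not given, so that run does not vouch for the calls. The SEs and intervals of the fits include the estimated spread between libraries as well as counting error. Spread between replicates exceeded counting error (chi-square per degree of freedom 5.92 to 16.5).

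Besides the 9 genes, the text names, per partner list and label comparison, up to 2 called genes ranked by adjusted p, and list members given as examples of a count. Of these, 1 gene is not reported here. The members, lists and tests were chosen with earlier results of these data known. Alternatives were RLE scaling, library totals only, DESeq2 1.42.0, limma-voom (limma 3.58.1), no count filter, the replicate number as a block, other sets of libraries in the fit, the longest transcript as gene length, and leaving out each library. Leave-one-out counts of the gene lists were added after seeing the data. Ly6g and Ahsp were not matched in the table, and Spi1 was matched as Sfpi1.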

Additional observations from a re-analysis of the deposited data

Results flagged for a closer look

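The effect of the Plek2 label differed between erythroblasts and progenitors, by the interaction term of the fit of 8 libraries, for 8 of the 9 genes. The differences in log2 fold change (erythroblasts minus progenitors) were -2.06 for Cxcr2, -1.59 for Ccr1, -2.03 for Fpr1, -2.32 for Fpr2, -1.90 for C5ar1, -1.55 for Ltb4r1, -1.78 for Itgam and -1.29 for Itgb2. The edgeR adjusted p ran from 0.000272 for Fpr1 to 0.00516 for C5ar1. The chemokine receptor Cxcr4 did not pass this test.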

How the results depend on the processing

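The 8 progenitor and 8 interaction calls among the 9 genes were the same in number under RLE scaling, library totals only, DESeq2, limma-voom, no count filter and the replicate block, and ran from 7 to 9 and from 8 to 8 with 1 library left out. The 3 erythroblast calls became 6 with no count filter and 0 to 7 with 1 library left out. Population calls ran from 5 to 6 (Plek2+/+) and 6 to 9 (Plek2-/-) with 1 library left out. Genes called over the whole table in erythroblasts (348) became 230 with library totals only, 845 with no count filter and 25 to 995 with 1 library left out. In progenitors (646) they became 1315 with no filter and 239 to 2649, and for the interaction (742) 1215 with no filter and 401 to 1175.

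With the replicate number as a replicate block the erythroblast calls over all genes rose to 579 and the calls among the 9 to 4, with Cxcr2 added (adjusted p = 0.0496); the libraries share only a number (correlation of same-numbered deviations 0.07 in erythroblasts and -0.10 in progenitors). With library totals only, the Plek2+/+ population difference turned to -0.79 for Cxcr4, -0.26 for Ccr1, -0.34 for C5ar1, -0.080 for Itgam and -0.44 for Itgb2. With 1 library left out, signs turned for values not called in the full data: Cxcr4 ran from -0.26 to 0.061 in progenitors, -0.28 to 0.049 for the interaction, -0.000624 to 0.12 between Plek2+/+ populations and -0.25 to 0.077 between Plek2-/- populations (0.0098 without erythroblast replicate 1), and Ltb4r1 from -0.24 to 0.055 between Plek2+/+ populations. The causes were not tested. A fit with 1 library in a group assumes that it varies like the others.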
